A study of Drosophila melanogaster with 6 samples.

Results

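The genes described here are the metallothioneins MtnA, MtnB, MtnC, MtnD and MtnE, the metal sensor MTF-1, the copper importers Ctr1A and Ctr1B, and the ferritin chains Fer1HCH and Fer2LCH of Drosophila melanogaster. They are 10 of the 17830 genes listed in the study's table and were taken by symbol. They were chosen by name with fold changes of the same comparison known, MtnA having been among the largest decreases, so calls and counts over these 10 genes are a description and are not read as evidence. RNA came from S2 cells, an embryo-derived line with features of blood cells (hemocytes), labelled WT under a control RNA interference treatment or labelled Brr2 knockdown, with 3 libraries in each group. Brr2 is an RNA helicase of the spliceosome, needed to unwind the paired U4 and U6 RNAs. Sample titles give the prefix sh, while the treatment protocol, shared by both groups, describes 8 µg of double-stranded RNA and a soak of 30 min. The labels mention no added metal, and they do not state that the replicates are separate cultures, so the p-values reflect the spread of these libraries, which may be technical.

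Metallothioneins are small proteins rich in cysteine that bind copper, zinc and cadmium and so buffer them inside the cell. In the fly, MTF-1 switches metallothionein genes on when metal is in excess and also switches on the importer gene Ctr1B when copper is scarce. Copper enters the cell through Ctr1 proteins, is handed on by chaperones such as Atox1 and Ccs, and is pumped out of the cytosol by ATP7. Iron is stored in ferritin, which in insects sits in the secretory pathway and holds heavy chains that oxidise iron and light chains that help it to form a core.

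Totals were 127654975 to 147620403 estimated counts per library. The targeted gene, listed as l(3)72Ab, was at 158.1, 198.5 and 221.1 CPM (counts scaled by library size, with TMM factors) in control libraries and at 108.5, 94.0 and 99.8 CPM in the knockdown libraries. Of 8 hemocyte genes 5 were above a mean of 1 CPM in control libraries, while the hemocyte genes Hml, He and NimC1 were at 0.477, 0.322 and 0.0933 CPM. The summed level of the 8 genes was 1600 to 2630 CPM in the controls and 761 to 1680 CPM in the knockdown libraries, and most of it was Col4a1 and vkg, whose means were 929.3 and 1034 CPM in the controls and 459.5 and 561.4 CPM in the knockdown libraries. The falls of Col4a1 and vkg did not pass the test (edgeR adjusted p = 0.0804 and 0.116), and the groups of vkg overlapped. Pxn was called lower (log2 -2.75, adjusted p = 0.00423). The mean of eater fell from 19.61 to 10.96 CPM without overlap of the groups, but did not pass (adjusted p = 0.106). The log2 fold change of srp was -0.13 (adjusted p = 0.577). He, Hml and NimC1 had higher means in the knockdown libraries, at 3.11, 0.831 and 0.22 CPM. He was called higher (log2 3.26, edgeR adjusted p = 0.00903), while Hml and NimC1 did not pass the test. The part of these genes in the results below was not tested. With each list taken alone, markers of fat body, ovary soma and gut copper cells reached at most 0.404, 0.239 and 0.0972 CPM in any library. Those of the germline summed to at most 0.903 CPM. Muscle markers summed to 2.36 to 3.71 CPM in the controls and 8.55 to 11.2 CPM in the knockdown libraries, a difference carried by Mlc2 (means of 2.21 and 9.56 CPM) while Mhc was at 0.622 and 0.43 CPM. Neuron markers summed to 25.4 to 32.1 and 22.1 to 25.1 CPM. Nearly all of that was elav (means of 29.49 and 23.25 CPM), while nSyb was at 0.0404 and 0.0414 CPM.

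MtnA was lower in the knockdown libraries, and almost all metallothionein RNA in these cells was MtnA. MtnA (FBgn0002868; chromosome arm 3R, 9783407 to 9784370, minus strand, 1 intron) was at 63.7, 106.8 and 29.1 CPM in control replicates 1 to 3 and at 9.06, 10.7 and 11.7 CPM in knockdown replicates 1 to 3. The groups did not overlap. The control libraries differed far more among themselves than the knockdown libraries did, with means of 66.5 ± 38.9 and 10.5 ± 1.35 CPM (mean ± SD, n = 3 each), that is, coefficients of variation of 58.5% and 12.9%. On the log2 scale the difference was -2.66 (SE 0.434), which left 15.8% of the control level. It was -2.14 without control replicate 2 and -3.01 without control replicate 3, the highest and the lowest control library. In bulk RNA, a lower level in every cell and a smaller share of cells that make the RNA cannot be told apart.

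The other metallothionein genes were near or at the limit of detection. MtnE (FBgn0262146; 3R, 20534021 to 20534704, minus strand) held 6, 5 and 51 estimated counts in control replicates 1 to 3 and 13, 40 and 35 in the knockdown replicates. MtnD (FBgn0053192; 3R, 20534962 to 20535301, plus strand) held 0, 6 and 34 in control and 10, 23 and 17 in knockdown libraries. Among the control libraries both were highest in control replicate 3, the control library with the least MtnA, and for both genes the groups overlapped. Other scarce genes went either way in that library. A further metallothionein gene, MtnF, held 17, 18 and 44 estimated counts in control replicates 1 to 3, and Ctr1B held 58, 42 and 21. The log2 fold changes of MtnE and MtnD were 0.83 (SE 0.919) and 0.66 (SE 1.19), and neither passed the test. Without control replicate 3 they were 2.57 and 2.61 and still did not pass (edgeR adjusted p = 0.0729 and 0.217), and with a replicate block they were 1.36 and 1.61 (adjusted p = 0.3 and 0.41). These 2 genes start 257 bases apart on opposite strands, and MtnD ends 21 bases from Stat92E, which held 216 to 343 CPM over the 6 libraries. The sources used here do not give how reads near that shared end were counted.

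MtnB (FBgn0002869; 3R, 20503102 to 20503746, minus strand) held 7, 11 and 0 estimated counts in control replicates 1 to 3 and 0 in each knockdown library. MtnC (FBgn0038790; 3R, 20360308 to 20360634, plus strand) held 0 in all 6 libraries, which allows a level of up to 0.0184 to 0.0275 CPM, depending on the library, for 3 counts. That limit covers counting error only. MtnB and MtnC were too low to be tested. As a share of the 5 summed metallothioneins, MtnA made up 99.86%, 99.85% and 98.24% in control replicates 1 to 3 and 97.73%, 95.51% and 96.79% in knockdown replicates 1 to 3. The sum of all 5 was 63.7, 106.9 and 29.7 CPM in the controls and 9.27, 11.2 and 12.1 CPM in the knockdown libraries, so the sum followed MtnA in each library.

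**Figure D1:**
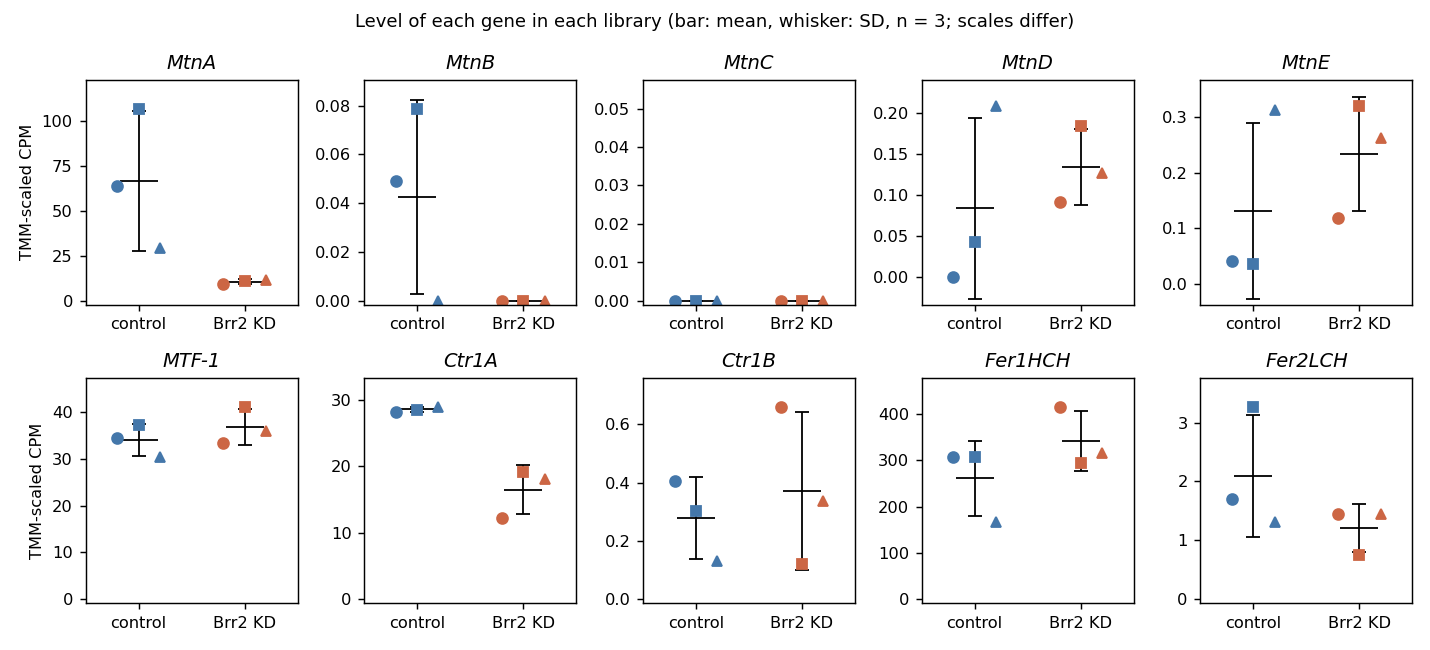
TMM-scaled CPM of the 10 genes in each library, with control libraries in blue and Brr2 knockdown libraries in orange. Circles, squares and triangles are replicates 1, 2 and 3, bars are means and whiskers are SD (n = 3), and each panel has its own scale. MtnA and Ctr1A are the genes whose groups do not overlap.

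MTF-1, the activator of the metallothionein genes, differed between the groups by less than the spread between libraries. MTF-1 (FBgn0040305; 3L, 9430312 to 9439490, plus strand) was at 34.6, 37.2 and 30.5 CPM in control replicates 1 to 3 and at 33.5, 41.1 and 36.0 CPM in the knockdown replicates. The groups overlapped, with means of 34.1 ± 3.4 and 36.9 ± 3.91 CPM (mean ± SD, n = 3 each). Its log2 fold change of 0.11 (SE 0.133) did not pass the test, and scaling by total counts alone made it -0.21. Gene-level RNA values say nothing of the place or activity of the MTF-1 protein. MTF-1 overlaps the genes Bet3 and CG42526 on the opposite strand, whose control means were 6.62 and 2.6 CPM. It also overlaps the noncoding RNA gene CR45872 on its own strand by 467 bases, with a control mean of 0.392 CPM.

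Of the 2 copper importers, Ctr1A was lower in the knockdown libraries and Ctr1B was scarce in both groups. Ctr1A (FBgn0062413; X, 6661647 to 6668258, plus strand, up to 6 introns), the general importer of the fly, was at 28.2, 28.5 and 29.0 CPM in control replicates 1 to 3 and at 12.3, 19.1 and 18.1 CPM in knockdown replicates 1 to 3. The groups did not overlap, and the control libraries lay close together, with a coefficient of variation of 1.3% against 22.4% in the knockdown libraries. The log2 fold change was -0.79 (SE 0.179), which left 57.7% of the control level. Ctr1B (FBgn0062412; 3R, 8317612 to 8319205, plus strand) was at 0.406, 0.301 and 0.129 CPM in the controls and at 0.66, 0.12 and 0.337 CPM in the knockdown libraries. The groups overlapped, and the log2 fold change of 0.41 (SE 0.705) turned to -0.29 without knockdown replicate 1. Ctr1B overlaps Poxm on the opposite strand by 181 bases and a long noncoding RNA gene, CR45215, by 395 bases, so its few counts are uncertain.

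The ferritin heavy chain was abundant in both groups, and the light chain was scarce. Fer1HCH (FBgn0015222; 3R, 30385573 to 30388178, minus strand) was at 307.4, 308.1 and 167.4 CPM in control replicates 1 to 3 and at 415.7, 294.0 and 316.9 CPM in the knockdown replicates. Fer2LCH (FBgn0015221; 3R, 30387804 to 30390584, plus strand) was at 1.7, 3.27 and 1.31 CPM in the controls and at 1.45, 0.743 and 1.44 CPM in the knockdown libraries. For both genes the groups overlapped, with log2 fold changes of 0.39 (SE 0.261) and -0.79 (SE 0.43), neither of which passed the test. Control replicate 3 had the lowest level of Fer1HCH of the 6 libraries. Per kilobase of exon, Fer1HCH exceeded Fer2LCH 125, 65.5 and 88.8 times in control and 199, 275 and 152 times in knockdown libraries. The genes overlap by 375 bases on opposite strands, and the sources used here do not give whether counting used strand, so counts of Fer2LCH, and with them this ratio, are uncertain.

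In the control libraries, levels in CPM per kilobase of exon were highest for Fer1HCH, at 110 ± 34.1, and MtnA, at 95.0 ± 55.6 (SD, n = 3), which did not differ beyond their spread. Ctr1A followed at 12.2 ± 0.159, MTF-1 at 7.4 ± 0.738 and Fer2LCH at 1.27 ± 0.628, and the libraries of these 3 genes did not overlap with those of the genes next to them in this order. MtnD, Ctr1B, MtnE and MtnB had means of 0.306, 0.292, 0.216 and 0.0729 CPM per kilobase, and each overlapped the next in this order. In the knockdown libraries MtnA stood at 15.0 ± 1.93 CPM per kilobase against 144 ± 27.2 for Fer1HCH, and Ctr1A, at 7.07 ± 1.58, overlapped with MTF-1, at 8.01 ± 0.85.

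Of the 10 genes 8 were abundant enough for the test. An adjusted p of 0.05 (edgeR, Benjamini-Hochberg over all 14167 features tested) was passed by MtnA and Ctr1A, both lower, and by no gene that was higher. Of all 11590 genes tested 17.7% passed, 9.63% lower and 8.05% higher. MtnA and Ctr1A were also the 2 tested genes of the 8 whose groups did not overlap, against 41.8% of all genes tested, 21.7% lower and 20.1% higher. The median log2 fold change of the 8 was 0.25, and that of all genes tested was -0.02. Since the genes were chosen with this comparison known, nothing is read from these counts. The call of MtnA was lost without knockdown replicate 1 (edgeR adjusted p = 0.0502), and that of Ctr1A without any of the 3 control replicates or knockdown replicate 3 (range 0.0531 to 0.0826). With 3 libraries against 3, an exact 2-sided permutation test of a single gene cannot give a p below 0.1.

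**Figure D2:**
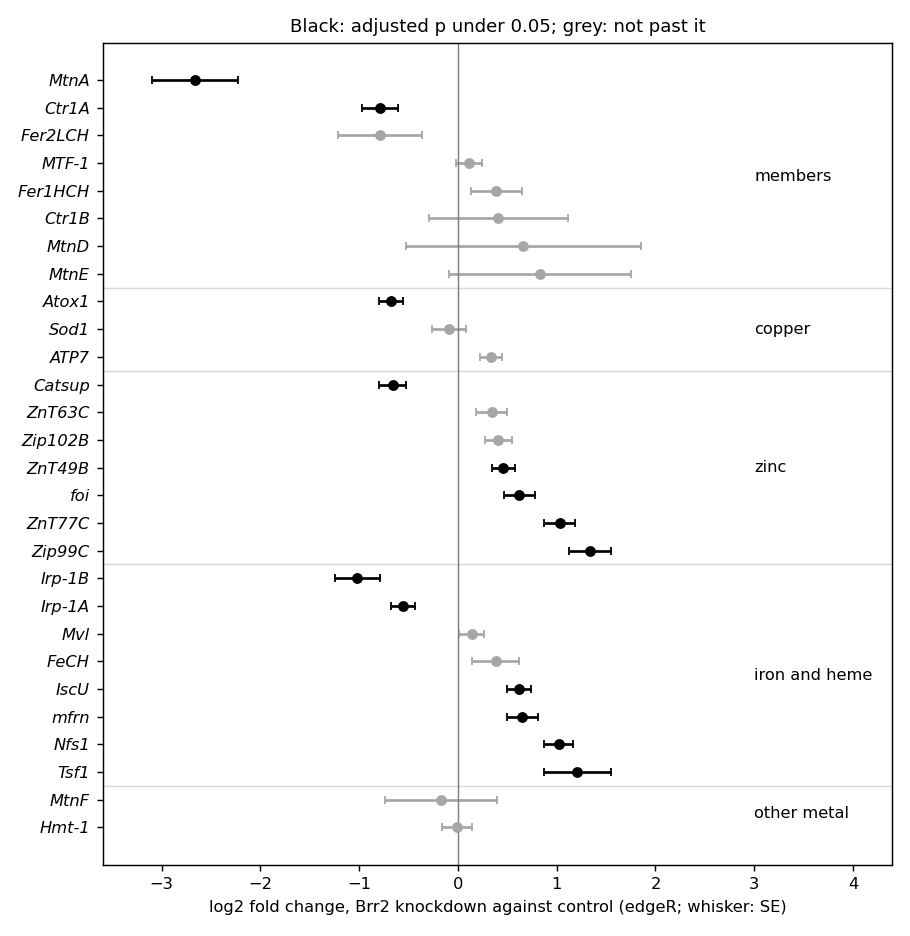
Log2 fold change of Brr2 knockdown against control libraries (points) with its SE (whiskers) for the 8 tested members and the named copper, zinc, iron and heme, and other metal genes. Black points passed an adjusted p of 0.05 and grey points did not; MtnA has the lowest value, -2.66, and Zip99C the highest, 1.34.

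Genes of metal transport and use beyond the 10 were listed by metal: 45 genes, of which 44 were found in the table and 38 were tested. Of these 38 genes 8 were called higher and 4 lower, or 31.6% against 17.7% of all genes tested, and their median log2 fold change was 0.28 against -0.02. The list was chosen with earlier results of these data known, and the share over all genes was not matched for level. Nothing is therefore read from these counts or from those by metal below. The groups did not overlap for 19 of the 38, 14 higher and 5 lower, where 41.8% of all genes tested did not overlap, 20.1% higher and 21.7% lower. Median shifts from scaling matter for small changes: scaling by total counts alone moved the log2 fold changes of all genes by a median of -0.34, and the list then had 3 genes higher and 6 lower.

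Of 8 tested copper genes 0 were called higher and 1 lower, or 12.5% against 17.7% of all genes tested. Atox1, the chaperone that hands copper to ATP7, fell from 23.9, 20.6 and 23.7 CPM in control to 14.3, 13.5 and 14.8 CPM in the knockdown libraries (log2 -0.68, SE 0.123, edgeR adjusted p = 0.0138). All 3 knockdown libraries lay below all 3 control libraries. ATP7, the copper pump, was at 33.4, 35.3 and 30.4 CPM in the controls and at 43.5, 40.7 and 40.4 CPM in the knockdown libraries, with a log2 fold change of 0.33 that did not pass the test (edgeR adjusted p = 0.0827). Its groups did not overlap, and it was called higher with upper quartile scaling (adjusted p = 0.037), DESeq2 (0.0481) and a minimum of 5 CPM (0.034), while scaling by total counts alone left no difference (log2 -0.00017, adjusted p = 0.999). Sod1, the superoxide dismutase that uses copper and zinc, was at 30.8 ± 6.27 CPM in the controls and 29.0 ± 3.61 CPM in the knockdown libraries (mean ± SD, n = 3 each; log2 -0.09, adjusted p = 0.758). Leaving out control replicate 1, knockdown replicate 1 or knockdown replicate 3 ended the call of Atox1 (adjusted p = 0.0581, 0.0561 and 0.0537).

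**Figure D3:**
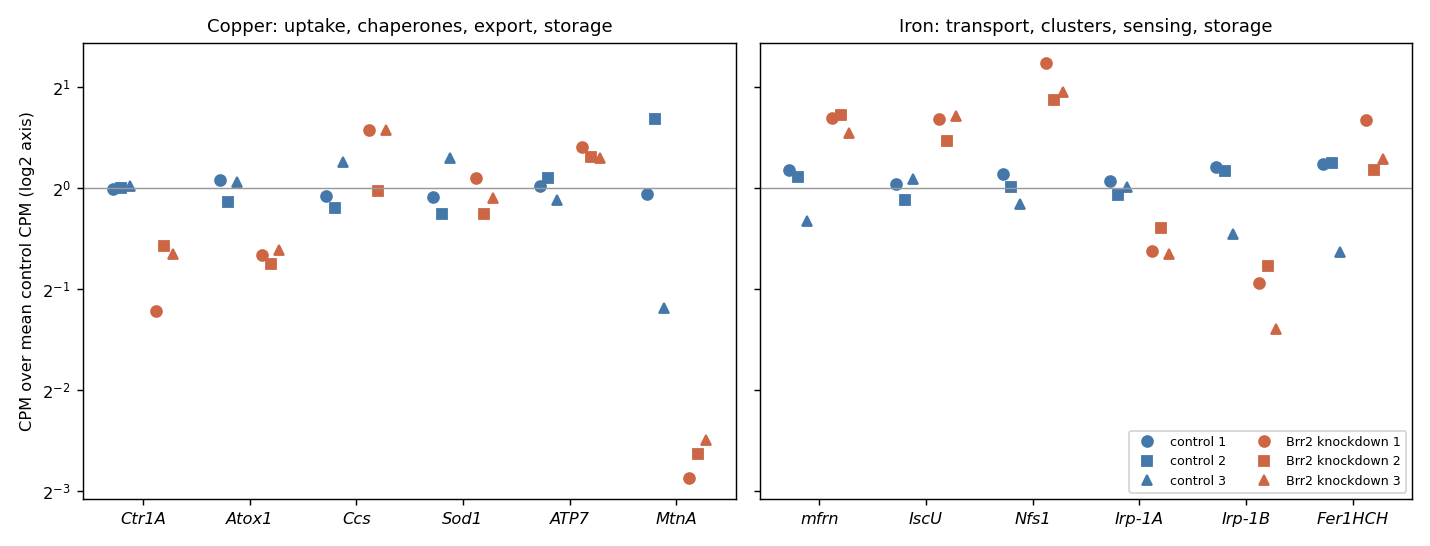
Level of copper genes (left) and iron genes (right) in each library over the mean of the 3 control libraries, on a log2 axis. Control libraries are blue, Brr2 knockdown libraries orange, and circles, squares and triangles are replicates 1, 2 and 3; all knockdown points of Ctr1A, Atox1, MtnA, Irp-1A and Irp-1B lie below the control points, and those of ATP7, mfrn, IscU and Nfs1 above them.

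Of 13 tested zinc transporter genes 4 were called higher and 1 lower, where 8.05% of all genes tested were called higher and 9.63% lower, and their median log2 fold change was 0.31. Zip99C, the fly ZIP13, which has been linked to iron transport in the secretory pathway, rose from 45.1, 56.3 and 43.2 CPM to 154.0, 91.7 and 120.7 CPM (log2 1.34, SE 0.211, edgeR adjusted p = 0.00994). ZnT77C, a member of the family that moves zinc out of the cytosol, rose from 14.9 ± 1.64 to 30.5 ± 4.7 CPM (mean ± SD, n = 3 each; log2 1.03, SE 0.158, adjusted p = 0.00911). For Zip99C and ZnT77C every knockdown library lay above every control library, and the calls held when any library was left out, with adjusted p of at most 0.0445. The ZIP family gene foi rose 1.54-fold (adjusted p = 0.038) and ZnT49B 1.38-fold (adjusted p = 0.0361). Catsup, the fly ZIP7 of the secretory pathway, fell from 181.5 ± 24.6 to 114.9 ± 4.31 CPM (change in log2 -0.66, SE 0.135, edgeR adjusted p = 0.0198). Zip102B and ZnT63C, the most abundant zinc transporters that did not pass, had log2 fold changes of 0.41 and 0.34 (adjusted p = 0.0811 and 0.174). ZnT35C, a known target of MTF-1 chosen here after its values were seen, held at most 0.0299 CPM in any library and was not tested. The call of foi was lost without any 1 of the 6 libraries (adjusted p of 0.0527 to 0.135), that of ZnT49B without any but control replicate 3 (0.0771 to 0.133), and that of Catsup without control replicate 1 or either of knockdown replicates 1 and 3 (0.0609 to 0.0828). Scaling by total counts alone also ended the calls of foi and ZnT49B (log2 0.29 and 0.12, adjusted p = 0.151 and 0.583), as did using no filter (0.067 and 0.0665). With a replicate block, Zip102B was called higher (adjusted p = 0.0415) and Zip88E lower (adjusted p = 0.0435), so 2 zinc genes were lower in that fit.

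Of 15 tested iron and heme genes 4 were called higher and 2 lower, where 17.7% of all genes tested were called, and their median log2 fold change was 0.51. With a replicate block 6 were higher and 3 lower. Nfs1, the cysteine desulfurase that supplies sulfur for iron-sulfur clusters, rose from 76.7, 70.4 and 62.6 CPM to 163.9, 127.9 and 134.9 CPM (log2 1.02, SE 0.146, edgeR adjusted p = 0.00754). IscU, the scaffold on which the clusters are built, rose from 47.5, 42.6 and 49.2 CPM to 74.1, 63.7 and 75.8 CPM (log2 0.62, SE 0.124, adjusted p = 0.0187). For both genes all knockdown libraries lay above all control libraries. The mitochondrial iron importer gene mfrn rose 1.57-fold (adjusted p = 0.0328), and Tsf1, a secreted transferrin, rose from a low 1.29 ± 0.549 CPM to 2.98 ± 0.452 CPM (mean ± SD, n = 3 each; adjusted p = 0.0486).

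The 2 genes that fell are the fly's cytosolic aconitases of the iron regulatory protein family. Irp-1A, which can bind iron-responsive elements in messages such as that of Fer1HCH when it lacks its iron-sulfur cluster, fell from 65.2, 59.4 and 62.9 CPM to 40.4, 47.4 and 39.7 CPM (log2 -0.56, SE 0.12, edgeR adjusted p = 0.0232). Irp-1B, its paralog, fell from 77.3, 74.9 and 48.7 CPM to 34.8, 39.0 and 25.4 CPM (change in log2 -1.02, SE 0.23, edgeR adjusted p = 0.0266). The groups did not overlap for either gene. Mvl, the fly NRAMP metal importer, and FeCH, which inserts iron into heme, had log2 fold changes of 0.14 and 0.38 and did not pass (adjusted p = 0.471 and 0.295). The call of Nfs1 held without any library (adjusted p of at most 0.0352). Calls were lost for Irp-1A, Irp-1B and IscU when control replicate 1 or 2, or knockdown replicate 1 or 3, was left out (0.0582 to 0.0964), for Tsf1 without any but control replicate 2 (0.0857 to 0.159) and for mfrn without any but control replicate 3 (0.0576 to 0.11). Scaling by total counts alone ended the calls of IscU (log2 0.27, adjusted p = 0.245), mfrn (0.33, adjusted p = 0.113) and Tsf1 (0.88, adjusted p = 0.081), and using no filter ended those of Irp-1B (adjusted p = 0.0526), mfrn (0.0615) and Tsf1 (0.0878).

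The other metal genes were the metallothionein MtnF, listed as CG43222, and Hmt-1, an ABC transporter tied to cadmium tolerance. MtnF was at 0.173 ± 0.0846 CPM in the controls and 0.154 ± 0.0378 CPM in the knockdown libraries (mean ± SD, n = 3 each; log2 -0.17, edgeR adjusted p = 0.856). It overlaps atl on the opposite strand by 90 bases. Means of atl were 132 CPM in the controls and 104 CPM in the knockdown libraries, so the few counts of MtnF are uncertain. Hmt-1 was at 66.7 ± 11.4 and 66.3 ± 3.44 CPM (log2 -0.01, adjusted p = 0.98).

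The genes whose course over the 6 libraries was most like that of MtnA were sought among 6310 other protein-coding genes averaging at least 5 CPM, as the smallest root-mean-square distance between log2 CPM profiles centred per gene. The nearest were cv-d, CG15861, Spn77Ba, Pxn and CG9503, at distances of 0.386 to 0.446 log2 units against a median of 1.33 over all genes compared. All 5 had lower levels in every knockdown library than in any control library, and their knockdown means were 14.8% to 21.6% of their control means. They were chosen for this likeness, so their levels are a description. Each was lowest among control libraries in control replicate 3, as MtnA was. Pxn, which encodes the matrix protein peroxidasin, is also among the hemocyte genes above and was at 9.04, 11.1 and 7.14 CPM in the controls and 0.843, 1.57 and 1.64 CPM in the knockdown libraries. The serpin gene Spn77Ba was at 96.4, 69.6 and 36.0 CPM in the controls and 7.12, 14.7 and 11.9 CPM in the knockdown libraries.

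The gene next to MtnA was also lower in the knockdown libraries. CG8500 starts 282 bases from the start of MtnA on the opposite strand and was looked up after the values of MtnA were known. It was at 26.5, 28.9 and 28.1 CPM in control replicates 1 to 3 and at 4.74, 14.5 and 9.26 CPM in knockdown replicates 1 to 3 (log2 -1.55, SE 0.36, edgeR adjusted p = 0.0291). Its control libraries lay close together, unlike those of MtnA. CG12947, 352 bases beyond the other end of MtnA, was at 2.14 CPM in the controls and 3.4 CPM in the knockdown libraries (log2 0.67, SE 0.37, adjusted p = 0.245). CG8500 lost its call without any 1 control replicate or knockdown replicate 3 (range of adjusted p 0.0552 to 0.0886), and also where no filter was used (0.0619).

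**Figure D4:**
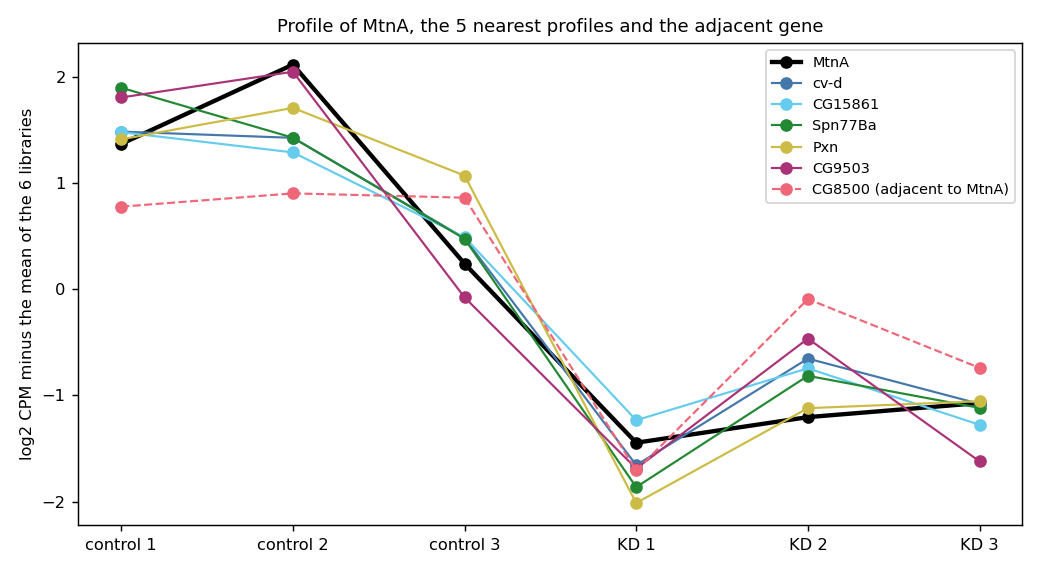
Log2 CPM minus the mean of the 6 libraries for MtnA, the 5 genes with the nearest profiles and the adjacent gene CG8500, by library. The 5 genes and MtnA drop in control replicate 3 and again in all knockdown libraries (KD), while CG8500 is level over the control libraries.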

How the data were processed

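The authors deposited estimated counts per gene and transposon copy, whole numbers that are not scaled between libraries, for 3 control and 3 knockdown libraries of S2 cells. RNA was depleted of ribosomal RNA, per the labels' protocols. The submitters' processing notes name Trimmomatic, TopHat2 and build BDGP6. How reads were counted, by which tool, and whether strand was used are points the sources used here do not give. Means of 965.7, 368.5, 387.3 and 438.2 features per library held the values 1, 2, 3 and 4. The number of features rose from the value 2 to the value 4, so a value may not stand for separate reads.

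The quasi-likelihood test of edgeR 4.0.16 (R 4.3.3) was used with TMM factors, features kept by filterByExpr, no block for replicates and Benjamini-Hochberg adjustment over 14167 features. Each SE is the size of the log2 fold change divided by the root of the F statistic, and levels are TMM-scaled CPM. Positions, introns and exon lengths came from the Ensembl release 115 annotation of BDGP6, matched by identifier. Alternatives were other scalings, DESeq2 1.42.0, limma 3.58.1 (voom), other filters, gene rows only, leaving out each library in turn, and a replicate block.

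The members and gene lists were chosen with earlier results of these data known. Genes named were the 10 members and, in each metal list, all called genes and up to 2 of the most abundant others. Named besides were the 5 profiles nearest to MtnA and, after values were seen, adjacent genes, ZnT35C, Zip88E, Alas, Ho and fh. Of 45 listed metal genes, Cox19 matched no row. Replicate numbers are shared by the groups. Deviations from group means correlated at 0.158, 0.211 and 0.306 between libraries that share a number, against -0.226 to 0.0688 between those that do not. Each group was centred on its own mean, so these correlations are not independent of one another and do not settle whether the libraries are paired. The labels state no pairing, so the main fit had no block, and a replicate block was run as an alternative. If the libraries are paired, the main SE and adjusted p values leave that out.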

Additional observations from a re-analysis of the deposited data

How the results depend on the processing

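MtnA was lower in all 15 alternatives, with log2 fold changes of -3.01 to -2.14 when a library was left out, and Ctr1A with -0.93 to -0.62. Without 1 library the values were 0.09 to 2.61 for MtnD, 0.39 to 2.57 for MtnE, 0.01 to 0.18 for MTF-1, -0.29 to 0.83 for Ctr1B, 0.16 to 0.54 for Fer1HCH and -1.02 to -0.31 for Fer2LCH (limma voom gave MtnD 1.97 and MtnE 1.37), and the calls of MtnA and Ctr1A were lost as given above, leaving 1 to 2 members lower. With total counts as the only scaling MTF-1 was at -0.21, ATP7 at -0.00017, ZnT63C at -0.01 and Mvl at -0.20. The list counts were then 2 zinc genes higher and 2 lower, 1 iron and heme gene higher, 3 metal genes higher in all, and 573 of all genes higher and 2788 lower, against 933 and 1116. With no filter 2 zinc and 2 iron and heme genes were higher, 1 iron and heme gene lower, 4 metal genes higher in all, and 598 of all genes higher and 660 lower. DESeq2 called 1439 genes higher and 1757 lower, and 1 copper gene, ATP7, was higher with DESeq2, upper quartile scaling or the 5 CPM minimum. Without 1 library, 0 to 1 copper genes were lower, 2 to 3 zinc genes higher and 0 to 1 lower, 1 to 3 iron and heme genes higher and 0 to 3 lower, 3 to 6 metal genes higher and 0 to 5 lower in all, and 342 to 917 of all genes higher and 281 to 1115 lower. The replicate block kept both member calls (MtnA -2.49, adjusted p = 0.0146). It gave 11 metal genes higher and 6 lower, 2 of those being zinc genes, adding Zip102B, fh and Ho (higher) and Alas and Zip88E (lower); it changed no other call among the members and metal genes. Values near 0 changed sign: Sod1 was at 0.03 with upper quartile scaling, 0.01 with the 5 CPM minimum and 0.10 without control replicate 3, MtnF ranged from -0.38 to 0.32 when a library was left out, and Hmt-1 at 0.11 with upper quartile scaling, 0.08 with the 5 CPM minimum, 0.02 with gene rows only, 0.01 with the replicate block or limma voom and -0.13 to 0.08 when a library was left out. The causes of these changes were not tested. Depth limits MtnB, MtnC, MtnD, MtnE, MtnF and Ctr1B, all below 1 CPM.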

Other observations

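Among the heme genes, Alas, which catalyses the entry step of heme synthesis, was at 62.1, 44.7 and 29.2 CPM in control replicates 1 to 3 and at 19.9, 29.7 and 17.6 CPM in knockdown replicates 1 to 3, so the groups met at control replicate 3 and knockdown replicate 2. The difference was -1.02 on the log2 scale (SE 0.307, edgeR adjusted p = 0.0611), and with a replicate block -0.99 (adjusted p = 0.0309). Ho, the heme oxygenase that breaks heme down and frees its iron, was at 13.1 ± 3.07 CPM in the controls and 18.8 ± 3.86 CPM in the knockdown libraries (mean ± SD, n = 3 each; log2 0.52, adjusted p = 0.145, and 0.53 with a replicate block, adjusted p = 0.0275). The frataxin gene fh was at 6.13 ± 0.669 and 8.74 ± 1.11 CPM (log2 0.51, adjusted p = 0.0844, and 0.0496 with a replicate block).

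The gene that ends 280 bases from the end of Ctr1A on the opposite strand, CG3198, moved the other way from Ctr1A. It rose from 24.0, 26.9 and 24.5 CPM in control to 41.9, 35.3 and 40.1 CPM in the knockdown libraries (log2 0.64, SE 0.119, edgeR adjusted p = 0.0149), and all knockdown libraries lay above all control libraries. Leaving out control replicate 1, knockdown replicate 1 or knockdown replicate 3 ended the call (adjusted p = 0.0611, 0.0646 and 0.0617), as did scaling by total counts alone (log2 0.30, adjusted p = 0.162). CG3224, 184 bases from the start of Ctr1A, was at 22.0 CPM in the controls and 23.5 CPM in the knockdown libraries (log2 0.09, SE 0.156, adjusted p = 0.703).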
